A study of Homo sapiens with 5 samples.

Results

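ZFP42 encodes the zinc-finger protein REX1, and TRIML1 and TRIML2 are its nearest protein-coding neighbours on the long arm of chromosome 4, in band 4q35. These 3 genes were chosen by name, with the difference of ZFP42 between the groups already known, and 2 of them, ZFP42 and TRIML2, were measured among the 33857 genes listed. TRIML1 was not among the genes listed, so it has no expression value here. Both measured genes passed the filter on low values that left 19232 genes for testing, but ZFP42 passed only through the mock controls, where it is high. The other 48 listed genes within 3 Mb of ZFP42, of which 30 were tested, served as the surrounding context.

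Poly(A+) RNA had been sequenced from H9 cells, a human embryonic stem cell (hESC) line grown undifferentiated in mTeSR medium, from 2 mock control clones and 3 CFIm25-m clones. The mock clones had received the CRISPR vector without a guide, and each CFIm25-m clone was picked after editing of NUDT21, the gene of the mRNA 3' processing factor CFIm25, with a guide of its own. The edits are small deletions near the start of the coding sequence. In the paper's blots and sequencing, a protein that lacks only a short N-terminal stretch remained, at a strongly lowered level in all 3 clones. The clones are therefore knockdown mutants and not full knockouts. Each group mean thus rests on single-cell clones, and clonal differences and the effect of editing cannot be told apart.

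REX1 arose as a retroposed copy of the transcription factor YY1 and is widely used as a mark of pluripotent stem cells, since its RNA is lost when they differentiate. In mouse stem cells its protein is degraded after ubiquitination by RLIM, a step in the control of X inactivation. TRIML1 and TRIML2 are divergently placed genes related to the tripartite motif (TRIM) family of ubiquitin ligases, and TRIML2 is known as a gene that p53 can induce.

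The upstream sequences of the measured members are shown because their start regions differ in base composition. They are the 250 bases before the RefSeq start site in GRCh38.p14, written 5′ to 3′ on the strand of the gene, with every CpG in capitals. The RefSeq start sites, at position 187995771 for ZFP42 and 188109603 for TRIML2, equal the 5′ ends of the genes in the deposited table. RefSeq also has a second TRIML2 start, at 188105587.
ZFP42, chr4:187995521-187995770, + strand: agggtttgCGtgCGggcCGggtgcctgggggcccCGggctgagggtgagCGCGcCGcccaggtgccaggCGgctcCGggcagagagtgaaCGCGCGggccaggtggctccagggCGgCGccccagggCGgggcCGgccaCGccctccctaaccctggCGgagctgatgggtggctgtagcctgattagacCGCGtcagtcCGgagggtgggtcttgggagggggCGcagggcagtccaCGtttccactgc
TRIML2, chr4:188109604-188109853, - strand: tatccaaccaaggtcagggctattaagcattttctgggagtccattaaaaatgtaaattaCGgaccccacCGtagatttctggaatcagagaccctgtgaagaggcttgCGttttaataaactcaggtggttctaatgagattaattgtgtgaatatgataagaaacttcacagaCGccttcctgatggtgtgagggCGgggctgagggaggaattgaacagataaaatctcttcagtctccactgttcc
The ZFP42 window held 23 CpG at 74.4% G and C, and 74.2% of 34943 RefSeq promoter windows of the same length held fewer. The TRIML2 window held 5 CpG at 43.2% G and C, the window of its second start held 6, and the TRIML1 window held 0, against a median of 11 over the 34943 windows. The GC box GGGCGG, read on both strands, occurred at 3 places in the ZFP42 window and at 1 in the first TRIML2 window, and 42.5% of all windows hold it. None of the octamer ATTTGCAT, the SOX motif CCTTTGTT, the YY1 motif GCCATNTT and the TATA box TATAAA was found on either strand of these windows, and 1.63%, 1.33%, 3.85% and 10.8% of all windows hold them. The CCAAT box CCAAT, held by 32.0% of all windows, was found only in the TRIML1 window. A match of letters is a description and not a bound site.

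The libraries held between 18754108 and 23372391 reads over the listed genes, and values are normalized counts, in which the authors had divided reads by a size factor for each sample. NUDT21 itself had 6503 and 6398 normalized counts in the mock controls against 4035, 3281 and 3400 in the CFIm25-m clones, with no overlap. Its log2 difference was -0.86 (adjusted p = 0.00431, limma), and the call was lost without mock control 1 (adjusted p = 0.0618) and without mock control 2 (adjusted p = 0.0557). Over all 19232 tested genes 180 were lower and 181 higher in CFIm25-m at an adjusted p below 0.05, and CPM scaling by library total gave 147 lower and 238 higher. The median log2 difference over all tested genes was -0.01. The 10 markers of undifferentiated hESC (POU5F1, SOX2, NANOG and others) summed to between 247243 and 251102 normalized counts in the 2 controls. In the 3 clones the sum was lower, from 226152 to 229704. Of the 10 markers 7 had a log2 difference below 0 and 3, POU5F1 among them, above 0. Limma called 0 of the 10, beside 1.88% of all tested genes. The markers of other cell types summed to 12484 to 13199 against 10517 to 12994 for ectoderm, nearly all of it NES, and to 129 to 155 against 116 to 155 for mesoderm. They summed to 54.2 to 59.8 against 54.0 to 68.2 for endoderm, 161 to 184 against 150 to 277 for trophoblast (5 of 7 markers listed), and 9308 to 9823 against 7159 to 8323 for fibroblast, nearly all of it type I collagen. Among these CDX2 was at 0 in both mock controls, and LUM in all 3 CFIm25-m clones.

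ZFP42 RNA was abundant in the mock controls and close to absent in every CFIm25-m clone. ZFP42 (ENSG00000179059, chromosome 4 from 187995771 to 188005050, + strand) had 2306 and 2403 normalized counts in the mock controls, from 2001 and 2490 reads. The CFIm25-m clones had 4.01, 3.60 and 0 normalized counts, from 4, 4 and 0 reads. Both mock controls thus lay far above all 3 clones, and the spread between the controls was small beside the gap. The group means were 2355 ± 68.3 (SD, n = 2) and 2.54 ± 2.21 (SD, n = 3) normalized counts, a log2 difference of -9.69 on the log2(value + 1) scale. This contrast chose the gene, so it is given with no test. The summed hESC markers, also lower in the clones, moved far less, and their part in the result was not tested.

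The residual level of ZFP42 rested on very few reads. The 8 reads of the 3 clones together amounted to 0.108% of the control level, and their 95% interval from counting error places the controls between 471 and 2151 times higher. CFIm25-m 1 held 0.170% and CFIm25-m 2 0.153% of the control level. For CFIm25-m 3, with 0 reads, the interval ended at 665-fold below the controls. The 95% counting intervals of the clones overlapped, at 1.09 to 10.2 reads for CFIm25-m 1 and for CFIm25-m 2 and 0 to 3.69 for CFIm25-m 3. A difference among the clones was not tested. Fewer cells with the RNA and less RNA per cell cannot be told apart in these bulk samples.

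In the mock controls ZFP42 stood higher than 94.0% and 94.2% of all listed genes by normalized count. On the RPKM scale (reads per kilobase of gene model, scaled to the library total) it had 40.2 and 41.7, against 0.0726, 0.0644 and 0 in the clones. Its log2 difference was the lowest of the 19232 tested genes, while its control mean ranked only 1988 from the highest. Of 4848 genes with a control mean of at least 1000 normalized counts, none kept a smaller share of the control level. The next were LINC00458, a long noncoding RNA of stem cells, at 1.56% and MT1G, a metallothionein, at 18.5%, both named after their values were seen. These ranks use the values that chose the gene and are a description.

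The gene of mean 100 or more with values most like ZFP42, among 12330 compared over the 5 samples, was CHCHD2, which encodes a mitochondrial protein with a twin cysteine motif. Its values were 280.1 and 279.9 normalized counts in the controls against 1.00, 2.70 and 3.85 in the clones. Likeness was measured as the root mean square difference of log2(value + 1), each gene centred on its own mean, and was 1.99 for CHCHD2. LINC00458 followed at 2.16, with 1698 and 1664 normalized counts in the controls and 20.0, 18.0 and 40.4 in the clones. Both genes were low in all 3 clones, as ZFP42 was, but their differences were smaller, at -6.41 and -6.04. UBBP4, BX322639.1 and MT1E came next, at 2.88, 3.27 and 3.47. Genes of mean below 100 were not compared, so closer ones may be missed. Among those were TUSC1 and MPV17L, at log2 differences of -6.86 and -6.40, both named after their values were seen. BX322639.1 and UBBP4 are transcribed pseudogenes, whose reads may be shared with near-identical copies.

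TRIML2 did not follow ZFP42, although its interval begins only 86.2 kb beyond the end of ZFP42. TRIML2 (ENSG00000179046, chromosome 4 from 188091273 to 188109603, - strand) had 879 and 892 normalized counts in the mock controls. The clones had 565, 458.2 and 1137 normalized counts, in the order CFIm25-m 1, 2 and 3. CFIm25-m 1 and 2 thus lay below both controls and CFIm25-m 3 above them, so the groups overlapped. The means were 886 ± 8.68 (SD, n = 2) and 720.1 ± 365 (SD, n = 3), a log2 difference of -0.41 that turned on CFIm25-m 3, since without it the difference was -0.80. TRIML2 was chosen with these results known, so no test of the difference is given.

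**Figure D1:**
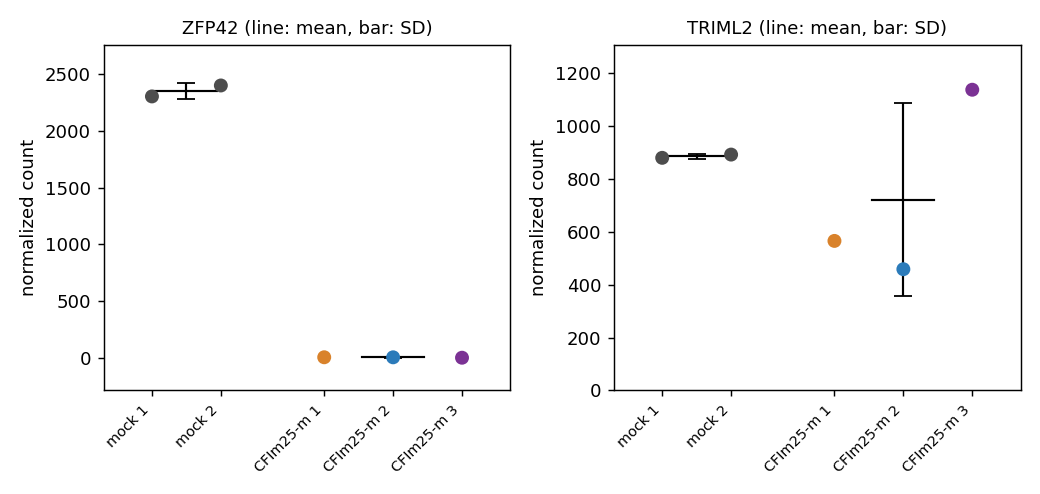
Normalized counts of ZFP42 (left) and TRIML2 (right) on linear axes in each mock control and CFIm25-m sample, with horizontal lines at group means and bars of 1 SD. ZFP42 is between 0 and 4.01 in all 3 CFIm25-m clones, while TRIML2 is below the controls in CFIm25-m 1 and 2 and above them in CFIm25-m 3.

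TRIML2 varied widely among the clones. The reads were 564, 509 and 1182 in CFIm25-m 1, 2 and 3, against 763 and 924 in the mock controls. CFIm25-m 1 held 63.8% of the control level, CFIm25-m 2 51.7% and CFIm25-m 3 128%. CFIm25-m 3, singled out after its value was seen, had 2.22 times the mean of CFIm25-m 1 and 2. The SD of log2 values was 0.685 over the clones and 0.014 over the mock controls. The median SD over the clones was 0.133 in the 4358 genes of mean 500 to 1500 normalized counts, and 10 of those genes had a larger SD than TRIML2. On the RPKM scale TRIML2 had 13.3 and 13.5 in the controls and 8.91, 7.14 and 18.5 in the clones. On this scale it was below ZFP42 in both controls and above it in every clone.

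Several genes on other chromosomes had nearly the same pattern of values as TRIML2. The nearest was COL7A1, the gene of type VII collagen on chromosome 3, with a root mean square difference of only 0.0552. COL7A1 had 687 and 762 normalized counts in the controls against 470.1, 379.9 and 881 in the clones. SEMA6A-AS1, an antisense transcript on chromosome 5, had 395 and 427 in the controls and 255, 241 and 484 in the clones, at a difference of 0.105. AC009055.2, a long intergenic RNA on chromosome 16, had 209.8 and 235 in the controls and 132, 106 and 334 in the clones, at 0.128. VENTX, which encodes a homeobox transcription factor, followed at 0.132, and AC011447.7 at 0.134. In all 5 of these genes CFIm25-m 1 and 2 were below and CFIm25-m 3 above both controls, with CFIm25-m 3 between 1.79 and 2.80 times the mean of the other clones. The genes were selected from 12330 for this likeness over 5 samples, so their shared pattern is a description.

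**Figure D2:**
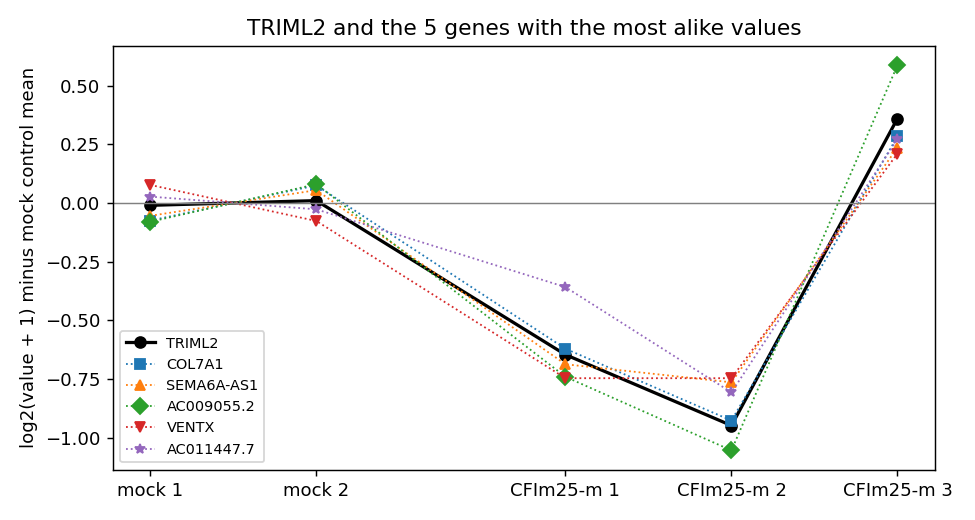
Log2(normalized count + 1) minus the mock control mean for TRIML2 (solid black) and the 5 genes with the most alike values (dotted), by sample. Lines only join the values of a gene, and all 6 genes lie below 0 in CFIm25-m 1 and 2 and above 0 in CFIm25-m 3.

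CFIm25-m 3 was the highest of the 5 samples in 4 of 30 tested context genes, all of low level. These were LRP2BP, AC108865.1, AC093909.1 and AC093909.6, picked by this property. The share over all tested genes was not counted, so the 4 genes are not read as sharing the TRIML2 pattern. LRP2BP had the same order of clones and controls as TRIML2, with 80.7 and 84.9 normalized counts in the controls and 71.2, 76.5 and 109 in the clones, so CFIm25-m 3 had 1.47 times the mean of the other clones. In the 10 context genes with a mean of at least 100 normalized counts, none of them nearer to ZFP42 than FAT1 at 1269 kb, CFIm25-m 3 was between 0.733 and 1.01 times the mean of CFIm25-m 1 and 2. Their SD over the clones was between 0.0684 and 0.307, against 0.685 for TRIML2. The pseudogene AC108073.2 lies inside TRIML2 on the opposite strand and had between 0.962 and 6.30 normalized counts. The strand setting of the counting was not given in the sources used here, so reads of the overlapping pair cannot be told apart, but these counts are few beside those of TRIML2.

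Most genes around ZFP42 differed little between the groups. Of 30 tested context genes 1 fell and 2 rose at an adjusted p below 0.05 (limma), where 0.936% of all tested genes fell and 0.941% rose, 1.88% in all. Their median log2 difference was 0.01, with 14 below and 16 above 0, against -0.01 over all tested genes. The groups did not overlap in 12 of the 30, or 40.0%, beside 36.8% of all tested genes. Of the 3 called genes 2, AC097652.1 and AC093797.1, passed the filter on low values through 1 group alone. Of the 48 listed context genes 19 are protein-coding and 7 are long intergenic RNAs.

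**Figure D3:**
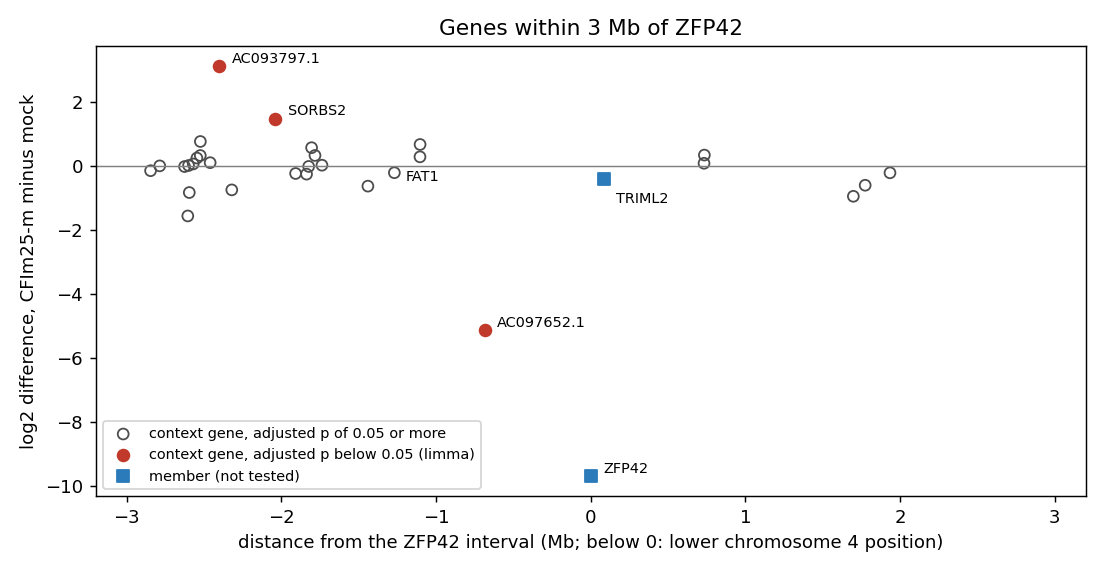
Log2 difference (CFIm25-m minus mock control) of the 30 tested context genes and the 2 measured members by distance from ZFP42 in Mb, negative towards lower positions on chromosome 4. Filled circles are the 3 genes with an adjusted p below 0.05 and squares the untested members. Apart from ZFP42 and AC097652.1, the plotted genes up to the distance of FAT1 lie between -0.41 and 0.68.

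The context gene that fell was AC097652.1, the nearest listed gene on the side of lower positions. AC097652.1 (ENSG00000250658, chromosome 4 from 187304083 to 187309682, - strand) is a long intergenic RNA of no known function, 686 kb from ZFP42. It had 26.5 and 44.4 normalized counts in the controls but 0 in each of the 3 clones. All clones were thus below both controls, from a low starting level. Its mean was at least 12.4-fold lower in CFIm25-m, taking 3 reads per library as the floor. The log2 difference on the log2(value + 1) scale was -5.14 (adjusted p = 0.00321, limma), and the adjusted p ranged from 2.15e-05 to 0.0146 over the alternatives that gave one. The gene passed the filter on low values only through the 2 controls, where it is high, so that p is not a fair test, and without either control the gene was below the filter. With no filter, all listed genes being tested, its adjusted p was 0.00171. The fitted difference depends on the small value added, at -2.98 with a pseudocount of 5 and -8.17 in edgeR.

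The next genes on that side were not called. AC108865.1 and AC108865.2, long intergenic RNAs 1103 kb away, had log2 differences of 0.29 and 0.68 (adjusted p of 0.655 and 0.570, limma). MRPS36P2, a pseudogene at 1095 kb, was below the filter, with at most 1.00 normalized count in any sample. FAT1, the atypical cadherin gene 1269 kb from ZFP42 and the most abundant context gene, had 6511 and 6546 normalized counts in the controls and 5979, 5487 and 5533 in the clones. The groups did not overlap, but the log2 difference of -0.21 did not pass (adjusted p = 0.322, limma).

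On the side of higher positions none of the nearest 5 listed genes other than TRIML2 passed. LINC01060, at 396 kb, was below the filter with 0 to 2.00 normalized counts, as was AC108073.2. AC093909.1 and AC093909.6, at 733 and 735 kb, had log2 differences of 0.09 and 0.35 (adjusted p of 0.903 and 0.527, limma). AF250324.1, at 1699 kb, had -0.94 (adjusted p = 0.504, limma), with 17.3 and 13.5 normalized counts in the controls and 9.02, 2.70 and 15.4 in the clones. The last of these clone values lies between the controls.

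SORBS2, an adaptor gene of the actin cytoskeleton, rose in all 3 clones. It lies 2039 kb from ZFP42 towards lower positions (ENSG00000154556, chromosome 4 from 185585444 to 185956652, - strand). SORBS2 had 398 and 397 normalized counts in the controls against 1426, 980 and 993 in the clones. The mock controls were nearly equal, and every clone was above them by more than the spread within either group. The log2 difference was 1.49 ± 0.16 (SE, adjusted p = 0.00196, limma), and it passed again when any single library was left out.

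The antisense gene AC093797.1 lies within SORBS2 and rose with it. Its values were 0 and 1.93 normalized counts in the controls and 17.0, 11.7 and 13.5 in the clones. The log2 difference was 3.12 (adjusted p = 0.0327, limma), with 1.69 at a pseudocount of 5, and the call was lost in edgeR (adjusted p = 0.0557), without mock control 1 (adjusted p = 0.201), and without CFIm25-m 1 (adjusted p = 0.143) or CFIm25-m 2 (adjusted p = 0.0955). This gene passed the filter only through the clones, where it is high, so the p is not a fair test, and with no filter its adjusted p was 0.0388. Reads of SORBS2 and its antisense gene cannot be told apart where they overlap.

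**Figure D4:**
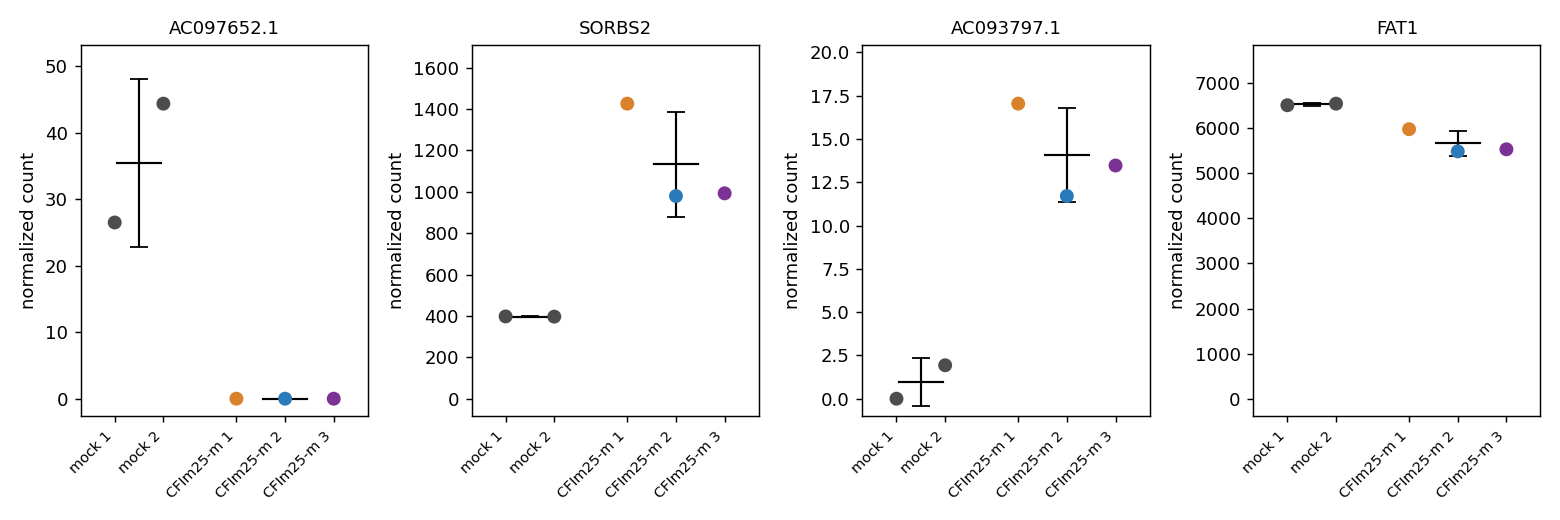
Normalized counts of the 3 called context genes and FAT1 in each mock control and CFIm25-m sample, on linear axes with a scale for each gene, group means as lines and bars of 1 SD. AC097652.1 is at 0 in all 3 clones, SORBS2 and AC093797.1 are higher in all 3, and FAT1 is lower in all 3 but was not called.

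The other abundant context genes changed little. SLC25A4, the mitochondrial ADP/ATP carrier, had 1884 and 1846 normalized counts in the controls and 1921, 1828 and 1375 in the clones, with a log2 difference of -0.14 (adjusted p = 0.658, limma). CFAP97, a cilium-associated gene, had a log2 difference of 0.01 (adjusted p = 0.979), SNX25, a sorting nexin, -0.01 (adjusted p = 0.975) and UFSP2, a protease of the ufmylation pathway, 0.07 (adjusted p = 0.844), all by limma. In each of these 4 genes the groups overlapped.

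None of the YY1 relatives and REX1 partners passed the test. Of 11 genes in the list 10 were listed and tested, and limma, edgeR and DESeq2 each called 0, where they called 1.88%, 1.81% and 3.7% of all genes with an adjusted p. At an unadjusted p below 0.05 in limma were 2 of the 10, CCNB1 and RYBP, beside 15.1% of all tested genes. The median log2 difference was -0.13, with 8 below and 2 above 0. YY1, the parent gene of ZFP42, had 4301 and 4292 normalized counts in the controls and 3963, 3770 and 3709 in the clones, a log2 difference of -0.17 (adjusted p = 0.387, limma). YY2, the other retroposed copy of YY1, had 13.8 and 6.76 in the controls and 10.02, 11.7 and 29.8 in the clones, and the groups overlapped (0.60, adjusted p = 0.629, limma). RLIM, the ubiquitin ligase of REX1, had a log2 difference of -0.16 (adjusted p = 0.475, limma). CCNB1, a mitotic cyclin, had -0.31 (adjusted p = 0.243, limma), and DNM1L, a gene of mitochondrial fission, -0.05 (adjusted p = 0.831, limma).

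Of 13 pluripotency regulators that act on ZFP42 or beside it and are reported here, limma and edgeR called 0 and DESeq2 called 2 (SALL4 and TFAP2C, the latter named after its values were seen), with 6 at an unadjusted p below 0.05 in limma. Over all genes DESeq2 called 3.7%, and 15.1% had an unadjusted p below 0.05 in limma. The counts speak for these 13 genes and not for the whole list, since 1 gene of it is left out. Their median log2 difference was -0.21, with 8 below and 5 above 0. POU5F1, the core factor OCT4, had 30200 and 31427 normalized counts in the controls and 34789, 38899 and 33173 in the clones, with a log2 difference of 0.21 that did not pass (adjusted p = 0.456, limma). SOX2, its partner factor, had -0.21 (adjusted p = 0.442, limma), and SALL4, a zinc-finger regulator, -0.35 (adjusted p = 0.0854, limma). Without CFIm25-m 3 the 13 genes held 6 calls, 4 lower and 2 higher, where 5.55% of all tested genes were called.

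The TRIM genes, relatives of TRIML1 and TRIML2, showed 1 lower gene among 46 tested of 58 listed, beside 0.936% of all tested genes. Their median log2 difference was -0.01, with 24 below and 22 above 0. The lower gene was TRIM71, also known as LIN41 and a target of let-7 microRNAs, at 24994 and 25323 normalized counts in the controls and 18593, 17464 and 15350 in the clones. Its log2 difference was -0.56 (adjusted p = 0.0429, limma), and the call was lost without mock control 1 or 2 (adjusted p of 0.475 and 0.502) and without CFIm25-m 1 or 2 (adjusted p of 0.0883 and 0.0930). TRIM28, the corepressor KAP1, had a log2 difference of -0.16 (adjusted p = 0.542, limma), its relative TRIM24 -0.32 (adjusted p = 0.155, limma), and TRIM33 -0.05 (adjusted p = 0.835, limma). Without CFIm25-m 3 the family held 3 calls, TRIM71, TRIM24 and TRIM6, the last named after its values were seen, where 5.55% of all tested genes were called.

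Of 15 p53 target genes, read because p53 can induce TRIML2, limma and edgeR called 0 and DESeq2 called 1 (PHLDA3, named after its values were seen), with 5 at an unadjusted p below 0.05 in limma. The shares over all genes were 3.7% in DESeq2 and 15.1% at an unadjusted p. Their median log2 difference was -0.17, with 12 below and 3 above 0. BAX, a promoter of apoptosis, had -0.33 (adjusted p = 0.141, limma), and RRM2B, a ribonucleotide reductase subunit, 0.23 (adjusted p = 0.356, limma). CDKN1A, the cell cycle inhibitor p21, had 2196 and 2253 normalized counts in the controls and 1351, 2346 and 1320 in the clones (log2 difference of -0.47, adjusted p = 0.336, limma). Its high clone was CFIm25-m 2, where TRIML2 was lowest, and a relation between the values was not tested. Without CFIm25-m 2 the list held 2 calls, CDKN1A and PHLDA3, and without CFIm25-m 3 it held 3, BAX, PHLDA3 and RRM2B, where 1.06% and 5.55% of all tested genes were called.

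**Figure D5:**
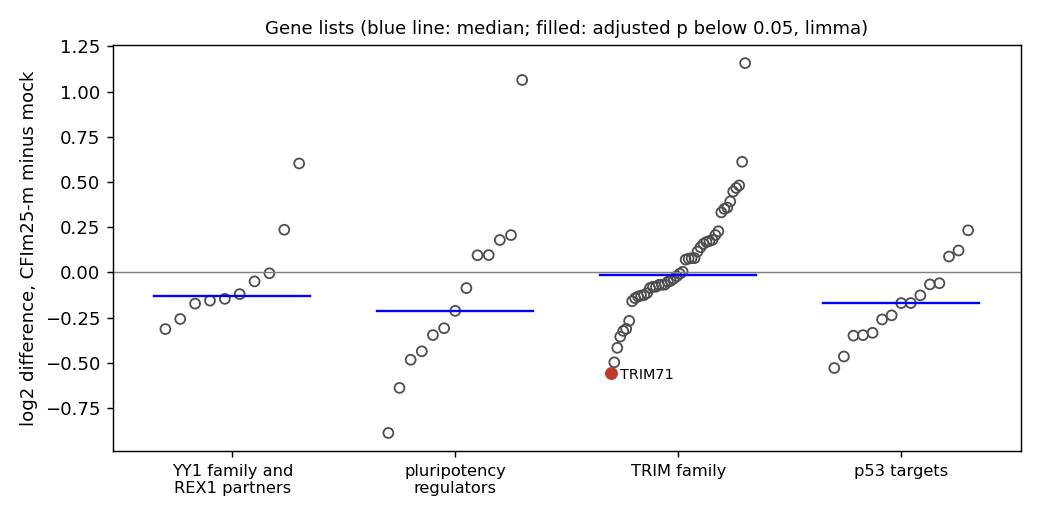
Log2 differences (CFIm25-m minus mock control) of the tested genes of 4 lists, 1 point a gene in rising order, with the median as a blue line. The filled point is TRIM71, the 1 plotted gene with an adjusted p below 0.05.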

How the data were processed

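Poly(A+) RNA of H9 cells had been selected with oligo(dT) and sequenced in pairs. The submitters' processing notes name HISAT2, featureCounts (Subread), DESeq2 and hg38, and the strand setting is not given in the sources used here. The authors deposited a signal for each gene and sample, a normalized count made by dividing reads by a size factor. Every value was a whole multiple of 1 step (tolerance 0.05 reads), so that whole reads could be recovered for 100% of the values. The deposited table also holds group means, log2 fold changes, p-values and adjusted p-values of the authors' own comparison, which were not used. Gene positions are those deposited, in hg38.

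The 5 samples were grouped by their labels. Labels give a group and a replicate number but name no clone, so reading each replicate as a clone follows the authors' description of the cells. Labels also do not say that samples of a group are separate cultures, so p-values measure only the spread between these samples. Log2(value + 1) was fitted for all genes with at least 10 in at least 2 samples by limma 3.58.1 in R 4.3.3 with a mean-variance trend, with Benjamini-Hochberg adjustment over all tested genes (threshold 0.05). These values are not raw counts, so count models on the recovered reads (DESeq2 1.42.0, edgeR 4.0.16) served as alternatives, as did other pseudocounts, filters and scalings, a replicate block and leaving out each sample. The fits were tested on simulated data. Intervals for reads are exact and 95%, and intervals and the floor of 3 reads cover counting error only.

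The members and gene lists were chosen with earlier results of these data known. The result of 1 gene of the pluripotency list is not reported here, and it was left out of the counts and plot of that list. Genes named were the members, NUDT21, the 5 nearest listed genes on each side of ZFP42, called context genes and the 6 of highest mean, from each list the called genes and up to 3 of highest mean, YY1, YY2 and RLIM, and the 5 genes most like each member. Promoter windows and CpG counts came from RefSeq (GRCh38.p14), which matched all 3 members.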

Additional observations from a re-analysis of the deposited data

How the results depend on the processing

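The log2 difference of ZFP42 was -9.69 and moved by more than the spread between samples only with a pseudocount of 5 (-8.34). Its direction was the same throughout, but this contrast chose the gene, so that is a description. Without mock control 1 or 2 ZFP42 was below the filter and had no fit. The plain difference of means is used there (-9.72 and -9.66). Leaving out 1 sample gave -10.10 to -8.94. TRIML2 stayed between -0.80 and -0.14 when 1 sample was left out. TRIML1 gave no value. The calls over all genes, 361, became 46 with no mean-variance trend and 628 in DESeq2, and ranged from 66 to 1044 with 1 sample left out. The 3 context calls became 1 with a filter of 50, with no trend, in DESeq2 (which gave no adjusted p for AC097652.1 and AC093797.1) and within 1000000 bases of ZFP42, and ranged from 1 to 3 with 1 sample left out. With no trend SORBS2 had an adjusted p of 0.0896 and NUDT21 0.106. The 13 pluripotency regulators, with 0 calls in the limma fit, had 2 in DESeq2 and from 0 to 6 with 1 sample left out. The TRIM call was lost with a filter of 50 and with no trend, and the count ranged from 0 to 3 with 1 sample left out. The p53 list, with 0 calls, had 1 in DESeq2 and 0 to 3 with 1 sample left out, and the YY1 list 0 to 0. The cause of these changes was not tested. Depth limits the residual ZFP42 level and AC097652.1, whose clone values are 4 reads or fewer.

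Deviations of same-numbered mock control and CFIm25-m samples correlated at only 0.0072 and 0.018 over genes, with 2 pairs. The deviations of the 2 controls mirror each other, and a pairing small beside the clonal differences would not show. Whether the replicate numbers pair the samples is thus not settled. With the replicate number as a block, where CFIm25-m 3 has no partner, 2107 genes were called, with 1 of the YY1 list, 8 of the pluripotency list, 5 TRIM genes and 4 p53 targets, and FAT1 passed (adjusted p = 0.0473). The block gave -0.80 for TRIML2, the same as without CFIm25-m 3. That clone is alone in its block and adds nothing to the fitted difference. The block is thus no separate alternative to leaving CFIm25-m 3 out. No called direction was reversed in any alternative.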
